A study of Mus musculus with 96 samples.

Results

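H3K4me3 was compared between Ogg1-/- and wild type (WT) non-neuronal nuclei of the mouse hippocampus over 3266 of the 3270 deposited peak windows, each 401 bp wide. The other 4 windows lie in 1 short repeat on chromosome 2 that took a large part of the reads, and were left out by position. Of the 3266 peaks, 3055 were annotated to promoters and 211 to other places, among them 130 distal intergenic, 39 intronic and 28 exonic peaks. The leading peaks in each direction were taken apart for promoters and for other peaks, 6 per class by the smallest p, 1 per gene, which gave 24 peaks. A choice by p favours peaks at which the genotypes do not overlap, so such separation at them is no separate support. Values below are given per library in the order of replicates 1, 2 and 3, and fold changes are Ogg1-/- minus WT on the log2(normalised reads + 1) scale.

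All groups were male C57BL/6N mice of 6 months in standard housing. WT, Ogg1-/-, Mutyh-/- and Ogg1-/- x Mutyh-/- mice (DKO) had 3 libraries each, and every library was made from hippocampi of 5 animals of 1 genotype that had been pooled, so the spread between libraries is a spread between pools. Nuclei were sorted by flow cytometry on NeuN, a protein of neuronal nuclei, and the NeuN- fraction holds the nuclei without it. Chromatin was precipitated with an antibody against H3K4me3 (Abcam ab8580). The NeuN+ fraction, and the H3K27me3 and Suz12 precipitates of the NeuN- fraction, were used here only as further readouts of the same peaks. Both fractions were collected in the sort, so their libraries may come from the same pools and need not be independent.

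Trimethylation of histone H3 at lysine 4 is laid down by the SETD1 and MLL (KMT2) methyltransferases and is removed by the KDM5 demethylases. It sits at the start sites of active genes, most of all where the DNA is rich in CpG. Ogg1 encodes the DNA glycosylase that removes 8-oxoguanine paired with cytosine, and Mutyh the one that removes adenine mispaired with 8-oxoguanine. Non-neuronal nuclei of the hippocampus come from astrocytes, oligodendrocytes and their precursors, microglia and cells of the blood vessels.

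A few sequences show what kinds of DNA were compared. Each line gives 1 strand (plus, GRCm38/mm10) from 5′ to 3′ with every CG dinucleotide in capitals. The first is the centre of the distal peak assigned to Axin2 (chr11:109011818-109012117), the next are the centres of the Aida peak (chr1:183299129-183299428), the strongest of the leading promoter peaks, and of the intergenic Pex2 peak (chr3:5860542-5860841). The last 2 are stretches without exons inside the promoter windows of Washc4, which had more reads in Ogg1-/- (chr10:83544103-83544350), and of Mxi1, which had fewer (chr19:53313463-53313762).
Axin2: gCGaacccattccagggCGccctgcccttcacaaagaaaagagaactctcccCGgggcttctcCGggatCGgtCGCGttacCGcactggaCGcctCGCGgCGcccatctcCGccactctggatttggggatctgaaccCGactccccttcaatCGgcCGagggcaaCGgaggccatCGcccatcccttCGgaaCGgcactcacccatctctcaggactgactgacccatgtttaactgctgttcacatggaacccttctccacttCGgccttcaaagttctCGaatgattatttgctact
Aida: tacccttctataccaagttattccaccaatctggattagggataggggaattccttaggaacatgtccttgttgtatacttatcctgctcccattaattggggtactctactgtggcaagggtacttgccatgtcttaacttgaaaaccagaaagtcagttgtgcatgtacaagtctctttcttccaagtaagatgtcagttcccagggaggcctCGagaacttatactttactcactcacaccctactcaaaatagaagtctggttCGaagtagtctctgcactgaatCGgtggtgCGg
Pex2: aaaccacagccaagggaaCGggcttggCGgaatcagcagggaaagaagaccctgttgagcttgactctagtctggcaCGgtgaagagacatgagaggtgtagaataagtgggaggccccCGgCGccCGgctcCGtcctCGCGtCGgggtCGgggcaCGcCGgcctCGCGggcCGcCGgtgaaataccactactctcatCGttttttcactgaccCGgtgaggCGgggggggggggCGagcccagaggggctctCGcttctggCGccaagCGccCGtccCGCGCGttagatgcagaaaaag
Washc4: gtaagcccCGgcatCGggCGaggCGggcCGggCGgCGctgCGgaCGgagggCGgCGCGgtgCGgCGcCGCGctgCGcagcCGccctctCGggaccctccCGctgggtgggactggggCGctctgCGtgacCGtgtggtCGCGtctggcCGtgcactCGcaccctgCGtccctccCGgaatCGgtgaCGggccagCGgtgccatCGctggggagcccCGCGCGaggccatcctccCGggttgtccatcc
Mxi1: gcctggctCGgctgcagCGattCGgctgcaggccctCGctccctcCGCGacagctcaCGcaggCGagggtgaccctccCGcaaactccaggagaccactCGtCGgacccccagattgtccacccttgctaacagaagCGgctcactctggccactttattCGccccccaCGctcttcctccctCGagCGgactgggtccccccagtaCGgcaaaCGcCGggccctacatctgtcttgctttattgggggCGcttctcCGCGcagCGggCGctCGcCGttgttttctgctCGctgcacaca
CG was counted on 1 strand, since its reverse complement is itself. The Axin2 distal centre held 22 CG in 300 bases, the Pex2 centre 28 and the Aida centre 4, whereas the Washc4 stretch held 37 in 248 bases and the Mxi1 stretch 27 in 300. Over all peaks the central 300 bases held a median of 32 CG, and 98.9% of them held at least 1 CG. The median was 33 at promoter peaks and 4 at the other peaks. By CpG content the Axin2 and Pex2 centres lay nearer to promoter peaks than to the other peaks, while the Aida window, although annotated 1-2 kb from a start site, did not resemble a promoter peak. CpG content does not make a window a promoter and does not tell where its reads come from.

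The libraries were shallow. Reads were recovered from the deposited values, and since it is not known whether input had been subtracted, a read number or a 0 here may not be that of the raw library. By these recovered reads, the peaks outside the chr2 window held 22912 to 46695 reads in WT and 30433 to 55012 in Ogg1-/-, and the median over peaks of the mean read number was 10.1 per library. Depth did not separate the genotypes (log2 ratio of means 0.38, exact two-sided permutation p = 0.4, the smallest possible with 3 against 3 being 0.1), and the ratio ran from 0.14 without Ogg1-/- replicate 1 to 0.72 without WT replicate 2. Mutyh-/- replicate 3 stood alone on the first principal component (17.5% of the variance), WT replicate 3 on the second (13.9%) and DKO replicate 3 on the third (12.3%). Ogg1 and Mutyh have no H3K4me3 peak in NeuN- nuclei, so the targeted genes could not check the labels here. The Ogg1 promoter peak of NeuN+ nuclei had a log2 fold change of 0.12 (limma adjusted p = 0.998), but H3K4me3 at a promoter need not change when a gene is disrupted.

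The identity of the fraction could be read only in part from H3K4me3. None of 13 neuronal markers (Rbfox3, which encodes NeuN, Syt1, Grin1 and others) had a promoter peak in NeuN- nuclei, whereas 11 of 13 had one in NeuN+ nuclei. Of those 13 genes, 5 (Bdnf, Gad1, Gad2, Grin2b and Rbfox3) carried a promoter peak of the Polycomb mark H3K27me3 in NeuN- nuclei. Glial markers were sparse as well. A promoter peak was present for 3 of 11 astrocyte genes (Glul, Slc1a2, Fgfr3), 2 of 13 oligodendrocyte genes (Olig1, Ugt8a), 1 of 4 precursor genes (Vcan), 1 of 12 microglial genes (Sall1) and 0 of 10 endothelial and mural genes. Defining glial genes such as Gfap, Aqp4, Mbp, Cx3cr1 and Csf1r had none. Glial markers also had more promoter peaks in NeuN+ than in NeuN- nuclei, with 5 against 3 astrocyte genes, 5 against 2 oligodendrocyte genes (Mbp and Cnp among the 5) and 2 against 1 microglial genes, and the NeuN+ table holds more peaks in all. The presence of a peak therefore did not tell the glial make-up of the fraction.

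Among the glial genes with a peak, Glul, which makes glutamine in astrocytes, had 7.36, 7.03 and 8.57 normalised reads in WT and 3.396, 14.4 and 19.99 in Ogg1-/- (log2 fold change 0.38, SE 0.64). Ugt8a, which makes myelin galactolipids, had 2.46, 6.15 and 8.57 against 10.2, 21.1 and 8.00 (1.08, SE 0.71), Vcan had 4.91, 9.67 and 0 against 9.51, 3.33 and 9.33 (0.97, SE 1.00), and Sall1 had 3.68, 5.27 and 8.57 against 5.43, 0 and 2.67 (-1.19, SE 1.00). The values of the genotypes overlapped at these 4 genes. They also overlapped at Slc1a2, an astrocyte glutamate transporter gene (0.04, SE 0.65), and at Olig1, a transcription factor gene of the oligodendrocyte lineage (0.57, SE 0.69). Fgfr3, a growth factor receptor gene of astrocytes, had 7.36, 5.27 and 6.86 in WT and 1.358, 4.45 and 2.67 in Ogg1-/-, with every Ogg1-/- library under every WT library (-1.04, SE 0.79). None of these 7 genes passed the test (limma adjusted p from 0.957 to 0.995). The direction of Glul and Vcan turned when 1 library was left out. Normalised reads are recovered reads scaled to the mean effective library size of 39783 reads. Summed over the promoter peaks, the astrocyte markers ranged from 18.9 to 24.6 in WT and from 11.5 to 28.0 in Ogg1-/-. The 2 oligodendrocyte markers ranged from 8.59 to 14.1 in WT and from 14.3 to 37.8 in Ogg1-/-, a higher sum in every Ogg1-/- library. Such separation was met at 5.54% of single peaks. The single precursor marker spanned 0 to 9.67 in WT and 3.33 to 9.51 in Ogg1-/-, and the single microglial marker 3.68 to 8.57 and 0 to 5.43. A different share of a cell type and a different level of the mark per nucleus cannot be told apart in sorted bulk nuclei. The part of the higher oligodendrocyte sum in the results that follow was not tested.

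Loss of Ogg1 was accompanied by few differences in H3K4me3 in NeuN- nuclei. At an adjusted p under 0.05 (limma, Benjamini-Hochberg over all 3266 peaks) 1 peak, or 0.0306%, was called, the distal peak assigned to Axin2. A differentially enriched region (DER), in the sense used for these data, is a peak with p below 0.05 before adjustment whose log2 fold change exceeds 0.5 in size. By this definition 86 peaks were higher in Ogg1-/- (2.63%) and 82 were lower (2.51%). All 168 peaks with a p under 0.05 met the fold threshold, which is 5.14% of the peaks tested. The median log2 fold change over all peaks was 0.05. All 3 Ogg1-/- libraries lay above all 3 WT libraries at 181 peaks (5.54%) and below them at 172 (5.27%). With the scaling factors of the deposited values in place of TMM factors, the median of all peaks moved to 0.25 and 86.0% of 107 DERs were higher, and with total reads as library size 40.8% of 157 DERs were higher, against 51.2% here. Single libraries moved it as well, from 35.8% higher (67 of 187 DERs) without Ogg1-/- replicate 1 to 75.5% (151 of 200) without WT replicate 2, with 67.5% (129 of 191) without WT replicate 1. The division into higher and lower peaks thus depended on the scaling and on single libraries.

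Peaks outside promoters stood apart from promoter peaks. At promoters 67 peaks were DERs with a higher level (2.19% of 3055) and 77 with a lower one (2.52%), the median log2 fold change was 0.04, and no promoter passed the adjusted threshold in limma (smallest adjusted p 0.735, with 144 promoters at an unadjusted p under 0.05). Outside promoters 19 peaks were DERs with a higher level (9% of 211) and 5 with a lower one (2.37%), and the median was 0.32. This was not particular to Ogg1-/-. Against the same WT libraries, 15 of the 211 were higher DERs and 7 lower in Mutyh-/-, and 17 and 4 in DKO, with medians of 0.03 and 0.23. In DKO against Mutyh-/-, which uses no WT library, 4 were higher and 2 lower, with a median of 0.13. Promoter peaks had a median GC content of 70.6% and 43 CpG per window, and the other peaks 45.6% and 5. Of the other peaks 58 lay in windows of which at least 50% is repeat-masked, and their median was 0.54, against 0.15 for the remaining 153. A near-identical copy elsewhere in the genome (at least 90% identity over at least 200 bp) was found for 107 of the 211. Reads that fit several copies cannot be assigned to one of them, so the values of such windows are uncertain. The share of reads at promoter peaks was 89.5, 76.95 and 76.2% in WT (80.9% ± 7.50, SD, n = 3) and 84.8, 66.9 and 75.7% in Ogg1-/- (75.8% ± 8.997, SD, n = 3). The difference of -5.11 percentage points lay within the spread between libraries (exact two-sided permutation p = 0.4). It was -9.64 without Ogg1-/- replicate 1, -0.64 without Ogg1-/- replicate 2 and -0.78 without WT replicate 1.

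**Figure D1:**
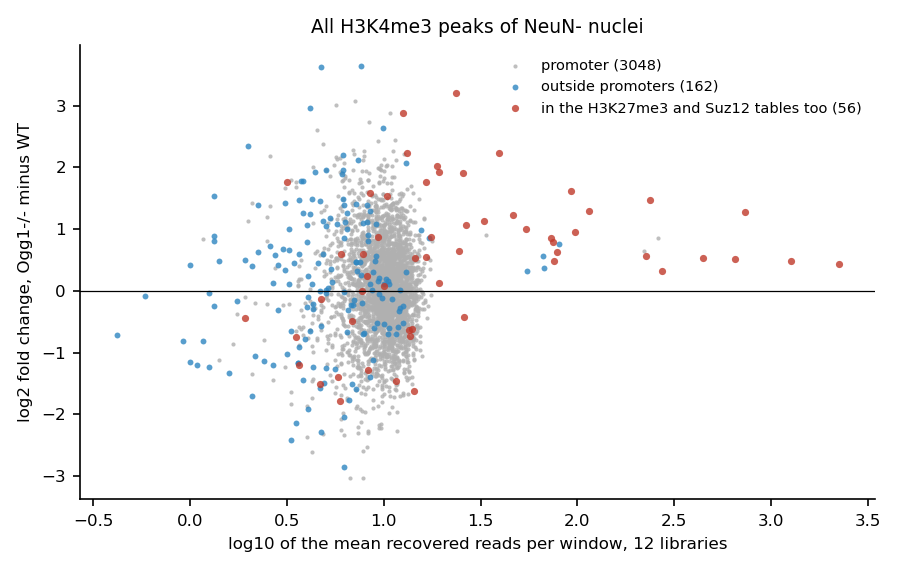
Log2 fold change of H3K4me3 (Ogg1-/- minus WT) against the log10 of the mean recovered reads over 12 libraries, 1 point per peak, for promoter peaks (grey), peaks outside promoters (blue) and the 56 peaks that are also in the H3K27me3 and Suz12 tables (red). Promoter points scatter on both sides of 0 at about 10 reads, and 30 of the 31 peaks with a mean of 20 reads or more lie above 0.

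The deepest windows lay mostly outside promoters. Of the 31 peaks with a mean of at least 20 reads, 26 lay outside promoters, 11 were DERs with a higher level in Ogg1-/- and 0 with a lower one by limma. The log2 fold change was above 0 at 30 of them, against 52.9% of all peaks, with a median of 0.79. The mean was taken over 12 libraries, of which 3 were WT, so windows low only in WT could still pass. An unadjusted p under 0.05 was met at 5 of them with edgeR and 8 with DESeq2, all higher. Limma called 1 of the 31 after adjustment, the Axin2 peak described next, and edgeR and DESeq2 called none. These windows are not typical H3K4me3 sites. A near-identical copy was found for 19 of the 31, against 132 of all 3266 peaks. Their medians were 45.6% repeat-masked and 8 CpG per window, against 4.74% and 42 over all peaks. In the same fraction 24 of the 31 overlapped a peak of H3K27me3. A peak of Suz12, a subunit of Polycomb repressive complex 2, was overlapped by 30. The part of copies or repeats in these overlaps was not tested. The share of reads at these 31 peaks was 8.92, 21.2 and 21.8% in WT and 14.6, 31.6 and 23.2% in Ogg1-/-. It moved with the share of reads in the chr2 window, which was 30.6, 55.0 and 56.8% in WT and 41.1, 64.9 and 57.3% in Ogg1-/-, and over the 12 libraries both shares were lowest in DKO replicate 1 and WT replicate 1 and highest in DKO replicate 2 and Ogg1-/- replicate 2. The part of this share in the higher values was not tested. In the knockouts that share the WT libraries, the median over the same peaks was 0.50 in Mutyh-/- and 0.43 in DKO. In DKO against Mutyh-/-, which uses neither WT nor Ogg1-/- libraries, it was 0.08.

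**Figure D2:**
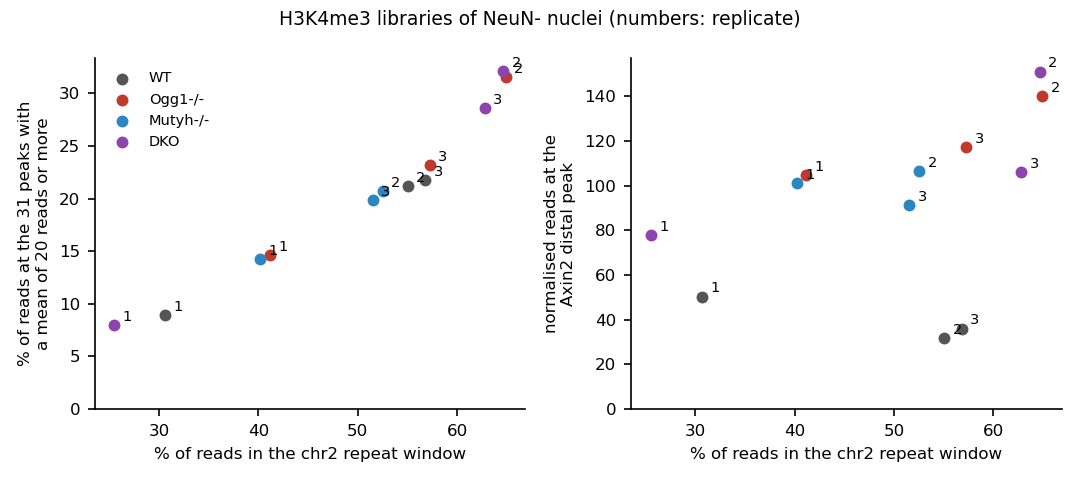
The 12 H3K4me3 libraries of NeuN- nuclei, with the share of reads in the chr2 repeat window (%) on the x axis of both panels, against the share of reads at the 31 peaks with a mean of 20 reads or more (%, left) and the normalised reads at the Axin2 distal peak (right). Colours give the genotype and digits the replicate. The share at the 31 peaks climbs with the window share from 7.98% in DKO replicate 1 to 32.1% in DKO replicate 2, whereas the 3 WT libraries are the lowest at the Axin2 peak.

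Axin2 encodes a scaffold of the destruction complex that degrades beta-catenin, and it is itself a target of Wnt signalling. The called peak (chr11:109011768-109012168) is distal intergenic, 60985 bp beyond the Axin2 gene and without an annotated exon in the window. No near-identical copy was found on the assembled chromosomes, but sequence missing from the assembly was not searched. Reads from such sequence could be placed in this window, so its assignment to Axin2 is by position only. The peak had 50.3, 31.6 and 36.0 normalised reads in WT (39.3 ± 9.77, SD) and 104.6, 140.0 and 117.3 in Ogg1-/- (121 ± 18.0, SD). The lowest Ogg1-/- library was above the highest WT library. H3K4me3 at this peak rose by 1.61 on the log2 scale (SE 0.30, limma adjusted p = 0.0429). Pooled over libraries, 98 reads in WT and 368 in Ogg1-/- gave a ratio of 3.05 after scaling (95% exact interval 2.43 to 3.85, which covers counting error only).

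The size of this difference was steady and its call was not. The log2 fold change stayed between 1.47 and 1.83 in 17 other settings, while the adjusted p spanned 0.0034 to 0.998, and 6 of the 17 settings called the peak. It was not called by edgeR or DESeq2, with robust moderation, without windows under a mean of 10 reads or without repeat-rich windows, where the adjusted p was 0.998, 0.104, 0.939, 0.0547 and 0.234. Leaving out WT replicate 2 or 3, or Ogg1-/- replicate 1, 2 or 3, gave 0.099, 0.166, 0.0602, 0.454 and 0.248. Leaving out WT replicate 1 gave 0.0247, and without the 3 libraries that stand apart it was 0.247.

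The Axin2 peak was also above WT in the libraries of the other knockouts. It had 101, 106.3 and 91.3 normalised reads in Mutyh-/- and 77.7, 151 and 105.9 in DKO, all above the 3 WT libraries, which these comparisons share. In DKO against Mutyh-/- the log2 fold change was 0.11 (SE 0.30, limma adjusted p = 0.977). In NeuN+ nuclei the corresponding window had 22.7, 43.1 and 52.6 normalised reads in WT and 84.7, 47.2 and 134.4 in Ogg1-/- (log2 fold change 1.11, SE 0.38, limma adjusted p = 0.998), and the genotypes overlapped. In NeuN- nuclei the same window was also a peak of H3K27me3 (log2 fold change 1.18, SE 0.93) and of Suz12 (-0.45, SE 0.65). The promoter peak of Axin2 itself (chr11:108920950-108921350) had 17.2, 14.1 and 1.71 normalised reads in WT and 13.6, 11.1 and 5.33 in Ogg1-/-, a log2 difference of 0.20 (SE 0.85). The difference at the distal window thus had no counterpart of detectable size at the Axin2 start site at this depth.

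The other leading peaks outside promoters with a higher level in Ogg1-/- were mostly windows in intergenic or intronic DNA. The intergenic window assigned to Pex2 (chr3:5860492-5860892), which encodes a factor for the formation of peroxisomes, lies upstream (-284253 bp from the start site) and has 3 near-identical copies. It had 79.8, 58.0 and 70.3 normalised reads in WT and 108.0, 160.0 and 139.9 in Ogg1-/-, without overlap (log2 fold change 0.95, SE 0.29). An intronic window of Kctd16 on chromosome 18, a gene for an auxiliary subunit of GABA-B receptors, had 28.2, 19.3 and 18.9 in WT and 48.9, 44.5 and 65.3 in Ogg1-/- (1.22, SE 0.33). The 3 Ogg1-/- libraries were again above the 3 WT libraries at both.

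At lower levels, an intronic window of Fbxw4 (chr19:45649970-45650370), a gene for an F-box protein, had 0, 14.1 and 0 normalised reads in WT and 6.11, 54.5 and 29.3 in Ogg1-/- (log2 fold change 3.21, SE 0.76). The genotypes overlapped there, and 67.3% of the window is repeat-masked. The intergenic window assigned to the microRNA gene Mir6356 on chromosome 18 had 0, 1.76 and 3.43 in WT and 19.0, 13.3 and 15.99 in Ogg1-/- (2.88, SE 0.65), but it has 14 near-identical copies. A window assigned to Cela3a (chr4:137388004-137388404), a pancreatic elastase gene 13150 bp away, covers an exon and the start of the non-coding gene 2810405F17Rik and had 0, 7.03 and 0 in WT and 10.2, 10.0 and 14.7 in Ogg1-/- (2.64, SE 0.78). The groups did not overlap at either of these 2 windows. With 4 reads for Mir6356 and 8 for Cela3a over the 3 WT libraries, the pooled ratios were 10.6 (95% exact interval 3.88 to 40.2) and 3.55 (1.62 to 8.86). Adjusted p values of these 5 peaks lay between 0.283 and 0.779 (limma). The Fbxw4 window was called by limma with the factors of the deposited values (adjusted p = 0.0015) and without WT replicate 2 (adjusted p = 7.6e-04), the 1 WT library with reads there.

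Lower peaks outside promoters were few and shallow, with 3.33 to 14.3 reads per library on average. The window near Muc3 (chr5:137152167-137152567), a mucin gene 2845 bp away, had 9.82, 23.7 and 17.1 normalised reads in WT and 0, 0 and 12.0 in Ogg1-/- (log2 fold change -2.85, SE 1.13). The intergenic window assigned to the pseudogene Pisd-ps1 (chr11:3101377-3101777) had 17.2, 24.6 and 30.9 against 2.04, 25.6 and 5.33 (-1.62, SE 0.67), and the genotypes overlapped at both. An intronic window of Mid1 (chrX:169993959-169994359), a ubiquitin ligase gene, had 17.2, 5.27 and 6.86 against 2.72, 1.11 and 0 (-2.28, SE 0.96), without overlap. Of the other 3, the window assigned to Zfp982 (chr4:147449785-147450185) had 6.14, 7.91 and 12.0 against 0, 4.45 and 0 (-2.42, SE 1.14) and has 6 near-identical copies. The window assigned to 4933438K21Rik (chr4:147126298-147126698) had 3.68, 16.7 and 13.7 against 0, 13.3 and 0 (-2.14, SE 1.03). The window assigned to Trim55 (chr3:19628404-19628804), a muscle ring-finger gene, lies in the non-coding gene 1700064H15Rik and had 11.05, 8.79 and 12.0 against 0, 6.67 and 4.00 (-1.77, SE 0.91), and it missed the DER threshold. The adjusted p was 0.945 at all 6 (limma), and with 1 library or another left out the unadjusted p of each was above 0.05.

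**Figure D3:**
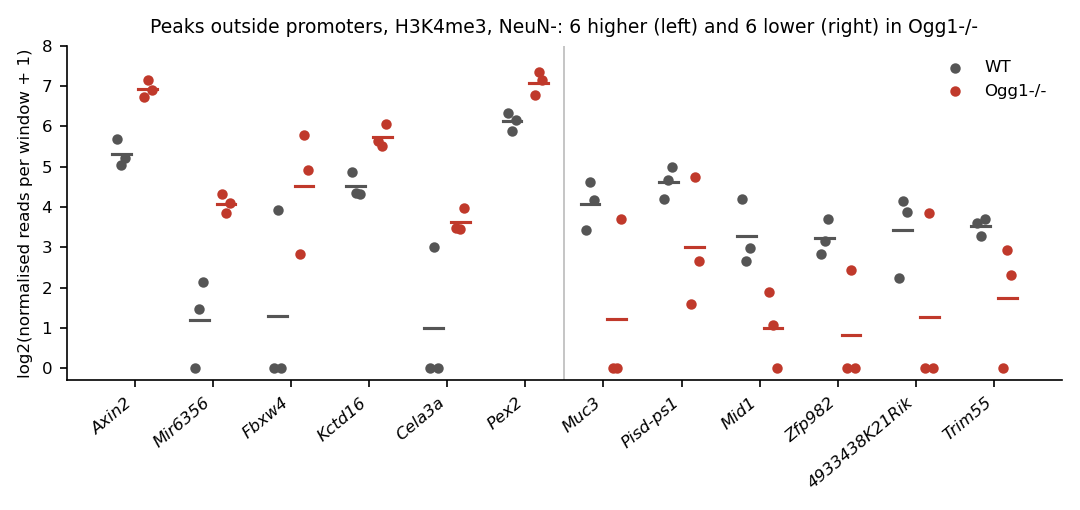
Log2(normalised reads + 1) in the 3 WT (grey) and 3 Ogg1-/- (red) libraries at the 6 leading higher peaks (left of the line) and the 6 leading lower peaks (right) outside promoters, with the mean as a bar. Axin2, Kctd16 and Pex2 are the deep windows on the left, where the tight WT and Ogg1-/- points do not overlap, and the lower peaks include libraries at 0.

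Leading promoters with a higher level in Ogg1-/- had low counts in WT, apart from Aida. Aida, an axin interactor, had a window within its first 1-2 kb (chr1:183299079-183299479, intronic by its lack of exons) with 63.8, 44.8 and 51.4 normalised reads in WT and 131.8, 118.9 and 143.9 in Ogg1-/- (log2 fold change 1.30, SE 0.40). All 3 Ogg1-/- libraries were above all WT libraries. Mutyh-/- had 153.3, 146.3 and 134.1 and DKO 42.8, 211.4 and 166.6 normalised reads at it, so that 1 DKO library was below every WT library. Like the Axin2 window, it was a peak of H3K27me3 (log2 fold change 0.85, SE 0.85) and of Suz12 (0.58, SE 0.68) in the same nuclei. In a fit of the 6 libraries of the 2 genotypes alone the Aida window had a limma adjusted p of 0.0391, against 0.879 with all 12.

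Washc4, a subunit of the WASH complex that builds actin on endosomes, had 0, 6.15 and 0 normalised reads at its promoter (chr10:83543950-83544350) in WT and 14.3, 10.0 and 15.99 in Ogg1-/- (log2 fold change 2.88, SE 0.80). Dnaaf10 (also Wdr92, chr11:17211847-17212247), which takes part in the assembly of dynein arms, had 0, 2.64 and 0 in WT and 9.51, 16.7 and 10.7 in Ogg1-/- (3.07, SE 0.87). The WT value rests on 3 reads, and the pooled ratio was 10.0 (95% exact interval 3.17 to 50.8). At both promoters 2 of the 3 WT libraries were at 0.

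Gpd1l, a glycerol-3-phosphate dehydrogenase-like gene (chr9:114933467-114933867), had 8.59, 1.76 and 0 normalised reads in WT and 14.3, 15.6 and 10.7 in Ogg1-/- (log2 fold change 2.27, SE 0.74). Daglb, which makes the endocannabinoid 2-arachidonoylglycerol (chr5:143464589-143464989), had 11.05, 0 and 1.71 in WT and 12.2, 20.0 and 17.3 in Ogg1-/- (2.43, SE 0.80). Stim2, a calcium sensor of the endoplasmic reticulum (chr5:53998880-53999280), had 2.46, 15.8 and 0 in WT and 9.51, 16.7 and 30.7 in Ogg1-/- (2.22, SE 0.75). Gpd1l and Daglb did not overlap between genotypes, Stim2 did, and without WT replicate 3 the unadjusted p of Stim2 was 0.0631. WT replicate 3, the library with the fewest reads of the 2 groups, was at 0 or 1.71 at all 5 of these low promoters.

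Leading promoters with a lower level in Ogg1-/- had the reverse form, with moderate levels in WT and few reads in Ogg1-/-. Klhl7, an adaptor of CUL3 ubiquitin ligases (chr5:24100709-24101109), had 11.05, 13.2 and 17.1 normalised reads in WT and 4.75, 0 and 0 in Ogg1-/- (log2 fold change -3.02, SE 0.86). Slc16a9, of the monocarboxylate transporter family (chr10:70245131-70245531), had 6.14, 10.5 and 10.3 in WT and 0.679, 0 and 0 in Ogg1-/- (-3.04, SE 0.87). Its Ogg1-/- value rests on 1 read against 23, a ratio of 28.3 of WT over Ogg1-/- with a 95% exact interval of 4.60 to 1167. The fitted folds of such windows depend on the added 1.

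Abca2, a lipid transporter abundant in oligodendrocytes (chr2:25428698-25429098), had 24.6, 11.4 and 25.7 normalised reads in WT and 7.47, 4.45 and 2.67 in Ogg1-/- (log2 fold change -1.88, SE 0.55). Inpp5f, a phosphoinositide phosphatase (chr7:128611489-128611889), had 20.9, 17.6 and 20.6 in WT and 10.9, 4.45 and 1.33 in Ogg1-/- (-1.95, SE 0.60).

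Mxi1, a MAX partner that opposes MYC (chr19:53313413-53313813), had 15.96, 16.7 and 15.4 normalised reads in WT and 6.79, 3.33 and 4.00 in Ogg1-/- (log2 fold change -1.62, SE 0.53). Cux1, a homeodomain transcription factor (chr5:136566881-136567281), had 18.4, 16.7 and 15.4 in WT and 4.75, 1.11 and 4.00 in Ogg1-/- (-2.18, SE 0.73). Mxi1 had the tightest WT group of the 12 promoters, with an SD of 0.64 on a mean of 16.03. None of the 6 lower promoters overlapped between genotypes, which their choice by p favours, beside 5.27% of all peaks with every Ogg1-/- library below WT. Adjusted p values of the 12 leading promoters ran from 0.735 to 0.922 in limma. Leaving out 1 library kept the unadjusted p of 11 of the 12 under 0.05 in limma, the exception being Stim2. These fits reuse the libraries by which the 12 were chosen and give no separate support. With the scaling factors of the deposited values the unadjusted limma p of Mxi1 was 0.0581.

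**Figure D4:**
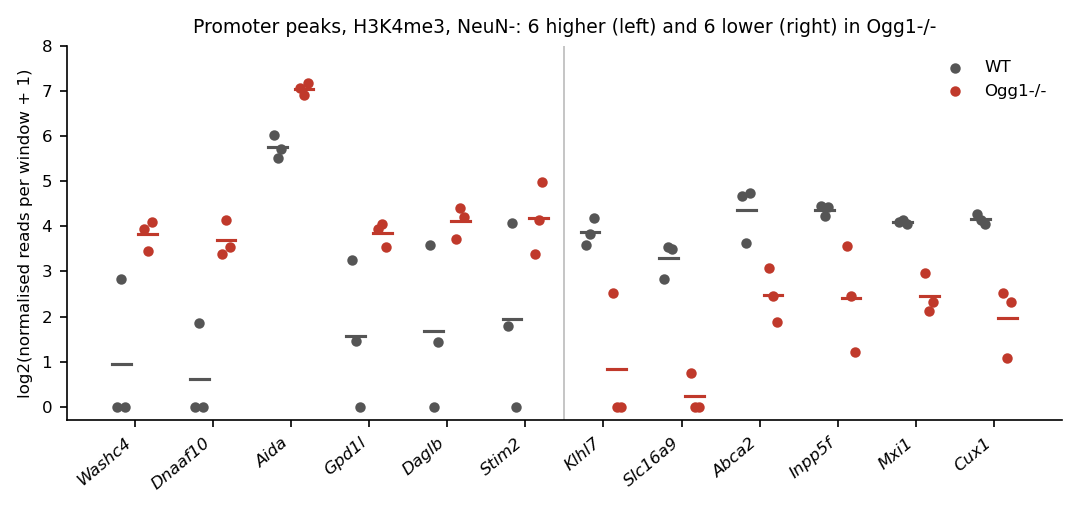
Log2(normalised reads + 1) in the 3 WT (grey) and 3 Ogg1-/- (red) libraries at the 6 leading higher promoters (left of the line) and the 6 leading lower promoters (right), with the mean as a bar. Aida is far above the rest, and several higher promoters have WT libraries at 0. At the lower promoters the Ogg1-/- libraries sit under every WT library, which the choice of these peaks by p favours.

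The leading peaks were then read in the Mutyh-/- and DKO libraries, which had entered their choice only through the spread estimated over all 12 libraries. Against the same WT libraries, every leading higher peak was also higher in Mutyh-/- and in DKO. The log2 fold changes ran from 0.44 and 0.43 at Pex2 to 3.75 and 3.68 at Fbxw4. Every leading lower peak was also lower in both, except Slc16a9 in Mutyh-/- (0.34). These comparisons share the WT libraries and are no separate readout of the loss of Ogg1. DKO against Mutyh-/- also removes Ogg1, on a Mutyh-/- background. In that comparison 0 of 3266 peaks (0%) passed the adjusted threshold in limma, 141 (4.32%) had an unadjusted p under 0.05 (79 with edgeR and 111 with DESeq2, which also made no adjusted call). The direction was the same as in Ogg1-/- against WT for 4 of the 6 higher promoters, 4 of the 6 lower promoters, 2 of the 6 higher other peaks and 2 of the 6 lower other peaks. Among the 24 only Cux1 had a p under 0.05 there, in the opposite direction (log2 fold change 1.82, SE 0.73). It had 8.25, 0.851 and 3.89 normalised reads in Mutyh-/- and 11.4, 16.8 and 15.6 in DKO. Over all DERs the log2 fold change was above 0 for 50 of the 86 higher peaks (58.1%) and 41 of the 82 lower peaks (50%), against 52.6% of all peaks. Across the 3266 peaks the Pearson correlation of the 2 log2 fold changes was 0.0057. The 2 comparisons have no library in common, but peaks are not independent of each other, so this value is a description only.

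In NeuN+ nuclei 487 of 12625 peaks (3.86%) had a p under 0.05 for Ogg1-/- against WT. Of the 86 higher DERs 75 had a peak there. The promoters and the other peaks differed in what they showed. Of 64 higher promoters 28 had a log2 fold change above 0 (43.8%, against 50.8% of all promoters), with a median of -0.02. Of 11 higher other peaks 10 were above 0 (90.9%, against 58.1% of the 105 other peaks with a NeuN+ peak), 4 of them with a p under 0.05, and the median was 0.71 against 0.17. Pex2 was one, with 62.5, 51.1 and 33.0 normalised reads in NeuN+ WT libraries and 111.1, 63.4 and 97.1 in NeuN+ Ogg1-/- libraries (log2 fold change 0.88, SE 0.41). The 77 lower promoters had 69 with a NeuN+ peak, of which 38 were above 0. The difference between the fractions was itself tested over 2997 peaks that match one to one, and 0 (0%) passed the adjusted threshold in limma or edgeR, with 129 and 147 at an unadjusted p under 0.05. These fits had no term for the pools, which the fractions may share. The smallest adjusted p among the 24 leading peaks was 0.329, at Abca2. Across these peaks the Pearson correlation of the NeuN- and NeuN+ log2 fold changes was 0.016.

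**Figure D5:**
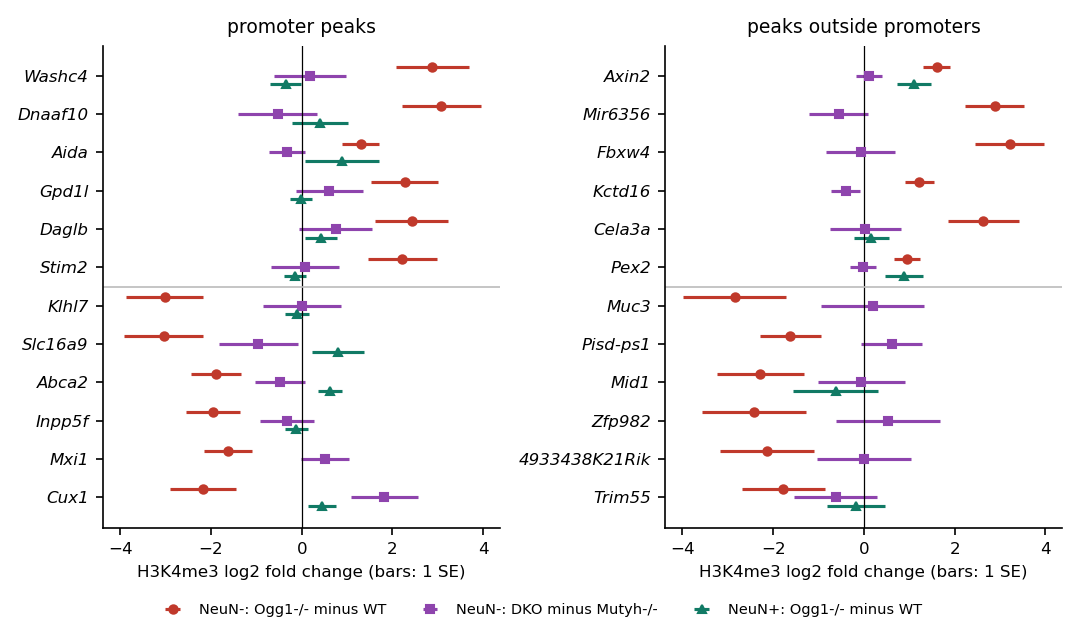
H3K4me3 log2 fold change with 1 SE at the 12 leading promoters (left) and the 12 leading peaks outside promoters (right) for Ogg1-/- minus WT in NeuN- nuclei (red, the comparison that chose the peaks), DKO minus Mutyh-/- in NeuN- nuclei (purple) and Ogg1-/- minus WT in NeuN+ nuclei (green, where there is a peak). The red points lie far from 0 by choice, the purple points run from -0.96 (Slc16a9) to 1.82 (Cux1), and the green points from -0.62 (Mid1) to 1.11 (Axin2).

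Among the peaks outside promoters, overlap with the Polycomb tables was frequent. Of the 19 higher DERs outside promoters, 14 overlapped an H3K27me3 peak and 14 a Suz12 peak of NeuN- nuclei, against 58 (27.5%) and 93 (44.1%) of the 211. Of the 19, 10 had a near-identical copy elsewhere and 6 were at least 50% repeat-masked, against 107 and 58 of the 211. The 19 were also deeper, with a median of 19.3 reads against 6.42 for the 211. Of all windows with a mean of at least 20 reads, 77.4% overlapped an H3K27me3 peak and 96.8% a Suz12 peak. The part of depth, copies or repeats in this overlap was not tested. In those tables a p under 0.05 was met by 75 of 1695 peaks (4.42%) for H3K27me3 and 28 of 308 (9.09%) for Suz12. In both, limma estimated 1 common variance trend with no spread of its own for single peaks, so these p values ignore how far a window's own libraries scatter. The 56 peaks present in all 3 tables had a median log2 fold change of 0.58 for H3K4me3, 0.03 for H3K27me3 and 0.29 for Suz12, and the medians over all peaks of the last 2 tables were 0.24 and 0.22. Of these 56, 29 had a near-identical copy and 17 were at least 50% repeat-masked. At Kctd16 the log2 fold changes were 1.74 for H3K27me3 (SE 0.79) and 2.57 for Suz12 (SE 0.87), neither with an adjusted p under 0.05 in limma. Its Suz12 level was 56.2, 15.2 and 0 normalised reads in WT and 63.1, 48.4 and 60.1 in Ogg1-/-. Its H3K27me3 level was 57.0, 11.9 and 6.02 in WT and 54.1, 81.7 and 42.4 in Ogg1-/-, and the genotypes overlapped in both. Fbxw4 had a Suz12 log2 fold change of 2.96 (SE 1.14), with 2.29, 16.3 and 0 in WT and 23.1, 20.5 and 50.5 in Ogg1-/-, and an H3K27me3 one of 0.02 (SE 0.80).

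Genes of the repair pathway in which OGG1 acts had few peaks. Base excision repair runs from glycosylases through AP endonuclease to gap filling and ligation. Of 23 such genes 5 had a promoter peak (Ung, Nthl1, Apex1, Fen1 and Lig3), with 1 higher DER and 0 lower by limma, beside 2.19% and 2.52% of all promoters, and a median log2 fold change of 0.58, beside 0.04 over all promoters. Lig3, the ligase that seals nicks at the end of the pathway (chr11:82781213-82781613), had 3.68, 14.9 and 8.57 normalised reads in WT and 19.7, 16.7 and 15.99 in Ogg1-/- (log2 fold change 1.04, SE 0.48, limma adjusted p = 0.945). The groups did not overlap, and leaving out 1 library raised the unadjusted p to as much as 0.209. The 5 summed promoters spanned 35.6 to 41.1 in WT and 43.5 to 68.9 in Ogg1-/-, without overlap. The windows of Nthl1, Apex1 and Fen1 also hold the start sites of Tsc2, Osgep and Tmem258. Their reads, and thus the sum, cannot be assigned to the repair genes alone. Over single peaks, every Ogg1-/- library lay above every WT library at 5.54%. In DKO against Mutyh-/- the log2 fold changes were -1.17 at Apex1, -0.78 at Ung, 0.05 at Fen1, 0.06 at Lig3 and 0.66 at Nthl1.

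Of 23 antioxidant genes 4 had a promoter peak (Cat, Sod2, Prdx6 and Gsr), none a DER, with a median of 0.38. Gsr, glutathione reductase, had 11.05, 14.1 and 1.71 normalised reads in WT and 17.7, 12.2 and 14.7 in Ogg1-/- (0.99, SE 0.61), and without WT replicate 3 its log2 fold change was 0.22. Of 40 Wnt pathway genes 16 had a promoter peak, none of them a DER, and their median of -0.08 was close to that of all promoters. They included Apc and Gsk3b of the destruction complex, 3 casein kinase genes, the frizzled receptors Fzd1, Fzd2 and Fzd7, and the ubiquitin ligase Znrf3. The Axin2 distal window was the only peak of the list with a p under 0.05.

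Genes that write, erase or counteract H3K4 methylation did not pass the test either. Of 18 H3K4 methylation enzymes 10 had a promoter peak, 0 were DERs by limma, and the median was -0.22. Kdm5b, a demethylase of H3K4me3, had 17.2, 15.8 and 10.3 normalised reads in WT and 16.98, 4.45 and 23.99 in Ogg1-/- (-0.17, SE 0.52), and Kmt2d, an MLL-type methyltransferase, had 9.82, 15.8 and 22.3 against 8.83, 11.1 and 5.33 (-0.83, SE 0.47). Both overlapped between genotypes, and the sign of Kdm5b turned with edgeR, DESeq2, the factors of the deposited values and without Ogg1-/- replicate 2. Of 11 genes of Polycomb repressive complex 2 and its partners 4 had a promoter peak, none a DER, with a median of -0.27. The accessory subunit gene Aebp2 had 8.59, 12.3 and 5.14 in WT and 14.9, 13.3 and 18.7 in Ogg1-/- (0.84, SE 0.55). Of 11 genes named in the report of this study 5 had a promoter peak (Glis1, Grm7, Oaf, Sema4c and Wnt6), none a DER, with a median of -0.51. That list was chosen on this series and is no independent choice of genes. Sema4c, a semaphorin gene, had 3.68, 10.5 and 6.86 in WT and 9.51, 6.67 and 15.99 in Ogg1-/- (0.56, SE 0.60).

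Peaks near the targeted gene on chromosome 6 were counted apart. Within 10 Mb of the Ogg1 start there were 29 peaks, 27 of them promoters, with a median log2 fold change of -0.25, beside 0.05 over all peaks, 0 higher DERs and 2 lower ones by limma, beside 2.63% and 2.51% of all peaks. Both lie close to Ogg1, which is at chr6:113326972-113335068. Brpf1, a scaffold of histone acetyltransferases (chr6:113307249-113307649), had 19.6, 23.7 and 24 normalised reads in WT and 14.9, 11.1 and 2.67 in Ogg1-/- (-1.39, SE 0.50, limma adjusted p = 0.922). Sec13, of COPII coats and nuclear pores (chr6:113740226-113740626), had 17.2, 13.2 and 15.4 in WT and 9.51, 0 and 10.7 in Ogg1-/- (-1.70, SE 0.73, limma adjusted p = 0.945). In neither did the genotypes overlap.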

How the data were processed

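The authors aligned reads to GRCm38/mm10 with Bowtie2 (2.3.5.1), called peaks with epic2 at a false discovery rate of 0.05 (the submitters' notes name SICER), kept peaks found in at least 2 of 3 replicates, counted reads with DiffBind (3.10.1), tested with edgeR (3.42.4) and annotated with ChIPseeker (1.36). The deposited values are a signal, reads per window divided by a library factor. Whether input was subtracted, duplicates removed or blacklists used is not given in the sources used here. DKO replicate 1 is at 0 in 2 of the 4 windows of the chr2 repeat, where the other 11 libraries hold 57 to 4702 and 227 to 2657 reads, so recovered reads, zeros and count intervals may not be those of raw reads. Depth was not stored, but 100% of the values in the tables used were whole multiples of 1 step per library, and these recovered reads were analysed.

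TMM factors were computed on the recovered reads outside the chr2 window, and log2(scaled reads + 1) was fitted with limma-trend (limma 3.58.1, R 4.3.3), genotype only, 12 libraries in 1 fit, two-sided, Benjamini-Hochberg over all peaks. At low windows, fold changes on this scale can be larger or smaller in size than those of count models. Stim2 had 2.22 with limma and 1.36 with edgeR, and Slc16a9 had -3.04 and -4.41. Peaks of different tables were matched by an overlap of at least 1 bp. Named peaks are every adjusted call, the 6 smallest p values in each of 4 classes with an absolute log2 fold change over 0.5, and from each gene list the member with the highest mean and those with a p under 0.05. Brpf1, Sec13 and Kmt2d fall outside this rule and were named after their values were seen. Members and lists were chosen with earlier results of these data known. edgeR (4.0.16) and DESeq2 (1.42.0) on the recovered reads were alternatives. The scripts were tested on simulated data. Copies were sought with blastn (2.17.0+) on the assembled chromosomes only, and exons were taken from the GENCODE annotation. Copies in sequence missing from the assembly would not be found. Pooled ratios carry exact 95% intervals for counting error only.

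Replicate numbers are shared by the genotypes in the labels, but deviations of same-numbered WT and Ogg1-/- libraries correlated by 0.0668, 0.0021 and 0.0316 only, so they were not treated as pairs.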

Additional observations from a re-analysis of the deposited data

Results flagged for a closer look

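At 3 named promoters every Ogg1-/- library lay on one side of every WT library in NeuN- nuclei and on the other side in NeuN+ nuclei. All 3 had been named by their p in NeuN- nuclei, which favours separation there. Over all peaks of NeuN- nuclei, 5.54% were separated upwards and 5.27% downwards. The share of matched peaks with opposite separation is not given here, so the count of 3 cannot be weighed. No adjusted p of the difference between the fractions was under 0.05 (limma).

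Abca2 had a log2 fold change of -1.88 in NeuN- nuclei. In NeuN+ nuclei it had 21.6, 24.2 and 25.8 normalised reads in WT and 40.1, 42.7 and 30.2 in Ogg1-/- (0.63, SE 0.26), and the difference between fractions was -2.51 (limma adjusted p = 0.329).

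Cux1 had a log2 fold change of -2.18 in NeuN- nuclei. In NeuN+ nuclei it had 23.9, 29.6 and 19.6 in WT and 32.1, 32.4 and 35.1 in Ogg1-/- (0.45, SE 0.32), and the adjusted p of the difference was 0.567 in limma.

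Lig3 had a log2 fold change of 1.04 in NeuN- nuclei. In NeuN+ nuclei it had 40.9, 41.7 and 49.5 in WT and 32.1, 28.0 and 37.3 in Ogg1-/- (-0.43, SE 0.28), and the adjusted p of the difference was 0.996 in limma.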

How the results depend on the processing

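With a median of 10.1 reads per window and library, depth limits most promoters. The 168 DERs became 107 with the authors' factors and 97 with a filter at a mean of 10 reads, and 104 to 200 when 1 library was left out, the lowest without Ogg1-/- replicate 2. Adjusted calls of Ogg1-/- against WT numbered 0 with edgeR (112 peaks at an unadjusted p under 0.05), DESeq2 (148), robust moderation, the filter, without repeat-rich peaks and without the 3 libraries that stand apart (chosen after seeing the data). They numbered 3 with the authors' factors, 2 with 6 libraries (Axin2 and Aida), and 0 to 1 when 1 library was left out. With the replicate block there were 184 DERs and 2 adjusted calls (Axin2 and Fbxw4), and the log2 ratio of reads in peaks was 0.40. The block changed no other call. The fraction difference gave 0 to 1 adjusted calls when 1 replicate was left out. The sign turned for Glul (-0.0679 without Ogg1-/- replicate 3, range -0.0679 to 1.06 with 1 library left out), Vcan (-0.0306 without WT replicate 3, range -0.0306 to 1.67, and -0.0318 without the 3 libraries that stand apart) and Kdm5b (0.0354 with edgeR, 0.0144 with DESeq2, 0.0657 with the authors' factors, and -0.61 to 0.49 with 1 library left out). The causes were not tested.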
